A study of Mus musculus with 45 samples.

Results

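DNA methylation at 233 CpGs in 23 PCR amplicons was compared between mice that had ever eaten a high-fat diet and mice that never had, to ask which methylation differences remained after weight loss. The 15 bisulfite amplicon libraries (BSP-seq) are 15 of the 45 samples of the series, and the labels alone decided which mice entered. All mice were male C57BL/6 mice (C57BL/6J in the study's methods) whose diets began at 6 weeks of age, and the tissue was the colonic epithelium, the sheet of cells lining the colon. Control mice (LF) ate the low-fat diet (10% fat) for 20 weeks. Obese mice (HF) ate the high-fat diet (60% fat, from lard) for 20 weeks. Formerly obese mice (HFLF) had 15 weeks of high-fat feeding followed by 5 weeks on the low-fat diet. Each group had 5 mice. The high-fat history value is the equal-weight mean of the obese and formerly obese groups, so a CpG can stand out in it through either group, and each group's own value is given beside it. Formerly obese mice also differed from both other groups in having changed diets, which cannot be told apart from weight loss here.

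In mammals, methyl groups on the cytosine of CG dinucleotides are placed by DNA methyltransferases and copied to the new strand at each cell division, so that a pattern can outlast the signal that set it. In the colon the epithelium is renewed from stem cells at the base of the crypts, and a mark that outlasts renewal is carried by those cells. Bisulfite turns unmethylated cytosines into uracil and leaves methylated ones, and the methylation level of a CpG is the percentage of reads that still carry a cytosine. The study's methods describe deep sequencing of the amplicons, but the read depth of each CpG was not in the table used, so the precision of a level within a mouse is unknown and all errors are the spread between mice.

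The amplicons held 4 to 24 CpGs over 102 to 541 bases. Of the 23, 8 overlapped an exon, 6 lay within introns and 9 lay between genes (intergenic), and 3 lay within 2 kb of the start of the gene they are named after. They are named by the gene they lie in or otherwise by the gene with the nearest start. Only protein-coding genes were used for these positions and names. The intergenic amplicons of Pax6, Igfbp7 and Gata6 overlapped annotated non-coding genes. The GC content was 43.2% to 75.8%, with a median of 53.8%. Mean levels of the CpGs ran from 3.61% to 97.8%, with 5 amplicons under 50% and 7 over 90%.

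The sequences of 5 amplicons are shown because 4 of them had the smallest p-values of the history comparison and the fifth had the largest difference. They are read from GRCm38 (mm10), plus strand, with each CG in capitals. The Pcdh8 intergenic amplicon is shown for its part chr14:79822681-79822980, 51.6 kb before the start of Pcdh8. The Polr1d amplicon is chr5:147128604-147128798, the 1700020N01Rik amplicon is chr10:21559765-21559882, the Pcdh8 exon amplicon is chr14:79769369-79769608, and the Lhx9 amplicon is shown for its part chr1:138838358-138838657 in a coding exon of Lhx9.
Pcdh8 intergenic: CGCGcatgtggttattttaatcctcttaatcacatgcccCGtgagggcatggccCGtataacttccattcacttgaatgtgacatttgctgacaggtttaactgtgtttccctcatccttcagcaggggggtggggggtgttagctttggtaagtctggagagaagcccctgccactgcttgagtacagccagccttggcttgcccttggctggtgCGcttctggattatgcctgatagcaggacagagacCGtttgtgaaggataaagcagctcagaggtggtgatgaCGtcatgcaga
Polr1d: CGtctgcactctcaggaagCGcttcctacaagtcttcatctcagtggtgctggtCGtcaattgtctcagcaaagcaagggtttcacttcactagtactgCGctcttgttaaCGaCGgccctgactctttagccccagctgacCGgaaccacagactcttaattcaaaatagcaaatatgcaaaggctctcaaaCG
1700020N01Rik: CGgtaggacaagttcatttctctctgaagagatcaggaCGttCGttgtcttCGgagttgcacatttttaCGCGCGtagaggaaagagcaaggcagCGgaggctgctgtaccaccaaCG
Pcdh8 exon: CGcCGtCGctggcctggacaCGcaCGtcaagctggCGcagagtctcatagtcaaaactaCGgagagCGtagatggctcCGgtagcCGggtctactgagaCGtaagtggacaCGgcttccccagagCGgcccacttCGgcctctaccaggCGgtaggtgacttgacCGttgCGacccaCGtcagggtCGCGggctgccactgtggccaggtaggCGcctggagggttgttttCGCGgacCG
Lhx9: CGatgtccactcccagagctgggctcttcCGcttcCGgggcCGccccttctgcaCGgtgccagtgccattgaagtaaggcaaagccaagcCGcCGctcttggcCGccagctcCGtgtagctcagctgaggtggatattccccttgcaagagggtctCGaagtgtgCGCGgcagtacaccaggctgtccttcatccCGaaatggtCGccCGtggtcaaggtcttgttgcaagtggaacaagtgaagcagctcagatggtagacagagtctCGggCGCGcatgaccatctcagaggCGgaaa
The 300 bases from the Pcdh8 intergenic amplicon hold 7 CGs, and the 3rd and 4th of them, at bases 40 and 55, are the CpGs that passed the test below. The 240 bases of the Pcdh8 exon hold 24.

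At the level of single CpGs, limma called 2 of 233 more methylated in mice with a high-fat history. They lay 15 bases apart in the intergenic amplicon upstream of Pcdh8, the gene of protocadherin 8, a cell adhesion protein of the cadherin superfamily. No CpG was called lower. In the limma fit over all CpGs the share called at an adjusted p under 0.05 was 0.858%. The obese and the formerly obese mice, each set against the same control mice, had 1 called CpG each (0.429% in each comparison). Between formerly obese and obese mice, limma called 0 of 233 CpGs (0%), and 11 had an unadjusted p under 0.05. The 95% interval of that difference had a median half-width of 1.76 percentage points.

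The CpG at chr14:79822735, base 55 of the Pcdh8 intergenic sequence, was methylated at 83.4, 81.6, 83.0, 83.5 and 83.7% in the 5 control mice. The obese mice had 85.2, 86.1, 86.0, 85.0 and 85.6%. The formerly obese mice had 85.5, 85.4, 85.6, 85.8 and 84.2%. All 10 mice with a high-fat history thus lay above all 5 control mice, and this was the single CpG of 233 without overlap (0.429%). The history difference was 2.42 percentage points (SE 0.38, adjusted p = 0.00516 in limma), and the smallest value that an exact permutation test of 5 against 10 mice can give, p = 0.000333, was reached. Adjusted over the 233 CpGs that permutation p was 0.0776, so by the permutation test 0 CpGs were called. A single CpG at the smallest possible p cannot pass this adjustment, so the permutation test could not have called this CpG alone. The obese and the formerly obese means were 85.6 ± 0.5 and 85.3 ± 0.6% (SD, n = 5 each) against 83.0 ± 0.9% in control mice. From obese to formerly obese mice the level differed by -0.28 percentage points, with a 95% interval from -1.22 to 0.66.

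At chr14:79822720, base 40, control mice had 71.7, 71.3, 70.8, 72.1 and 71.9%. Obese mice had 74.0, 73.6, 75.4, 75.5 and 75.7%, and formerly obese mice 76.3, 73.6, 75.3, 73.6 and 72.0%. The groups overlapped through formerly obese replicate 5, which lay within the range of the control mice. The history difference was 2.95 percentage points (SE 0.63, adjusted p = 0.0456 in limma). This call lay close to the threshold and was lost in 11 of the 15 fits that left out 1 mouse (adjusted p 0.00674 to 0.136), whereas the call at chr14:79822735 was kept in 15 of 15.

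Over the whole Pcdh8 intergenic amplicon, the mean of its 15 CpGs was 79.0, 78.9, 77.4, 79.3 and 80.1% in control mice. It was 79.5, 80.5, 81.1, 80.8 and 80.9% in obese mice and 80.9, 79.95, 81.3, 80.5 and 79.1% in formerly obese mice. The group means were 78.9 ± 1.0, 80.6 ± 0.6 and 80.4 ± 0.9% (SD, n = 5 each), and the groups overlapped between 79.1 and 80.1%. The history difference of 1.51 percentage points had an exact permutation p of 0.00433, two-sided, the smallest of the 23 amplicons, and an adjusted p of 0.0996. The adjusted p was 0.046 without control replicate 5 or without formerly obese replicate 5, and the other 13 fits that left out 1 mouse did not pass, up to an adjusted p of 0.291 and a difference of 1.12 without control replicate 3. All 15 CpGs were higher in the history mean, by 0.23 to 2.95 percentage points, and 13 of them were higher in both groups. Its CpGs varied together across mice (median r of 0.58 between pairs of CpGs over the 15 mice), so they are not independent of each other. The difference between formerly obese and obese mice was -0.20 percentage points (95% interval -1.31 to 0.92).

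**Figure D1:**
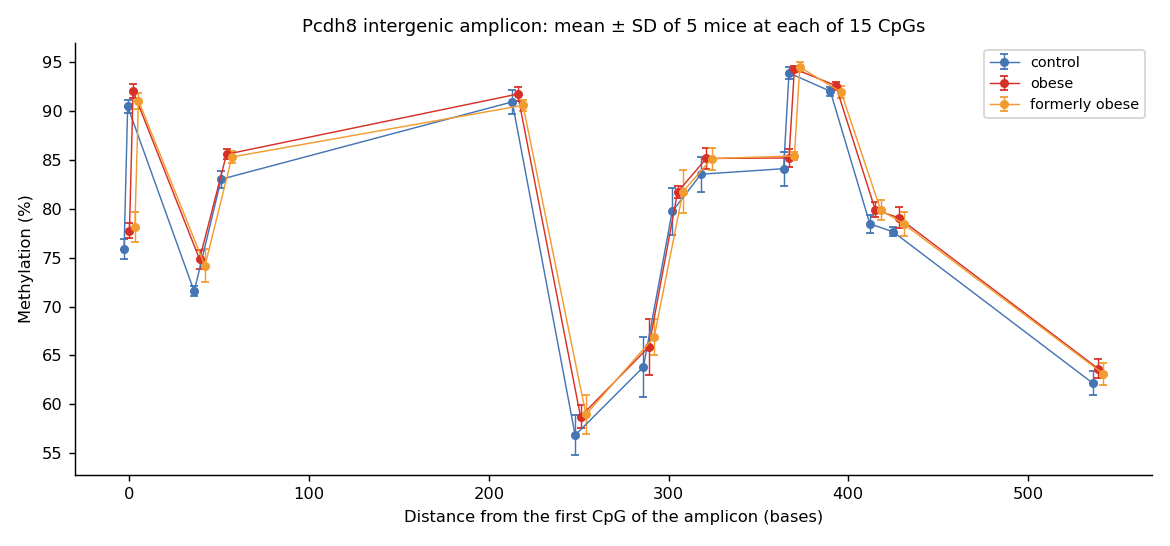
Methylation (%) at each of the 15 CpGs of the Pcdh8 intergenic amplicon against the distance in bases from its first CpG, as mean ± SD of 5 mice per group; groups are set 3 bases apart so that the bars can be told apart, and the axis does not start at 0. The level varied far more along the amplicon, from 58.2% to 94.3%, than between groups. The control mean lay below both other group means at 13 of 15 CpGs.

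The amplicon lies 51.4 kb from the nearest end of Pcdh8 and 161 kb from Olfm4, the protein-coding gene on its other side, which encodes the secreted protein olfactomedin 4. The other Pcdh8 amplicon lies 53.1 kb away in a coding exon of the gene and is far less methylated, with CpGs between 15.2 and 75.4% in control mice. Its 24 CpGs averaged 35.6, 37.2, 35.4, 34.9 and 32.8% in control mice, 36.1, 41.7, 37.0, 35.6 and 34.8% in obese mice and 37.7, 37.8, 38.6, 38.3 and 36.4% in formerly obese mice. Obese replicate 2 lay highest and the other obese mice overlapped the control mice, whereas 4 of 5 formerly obese mice lay above all control mice. The means were 35.2 ± 1.6, 37.0 ± 2.7 and 37.8 ± 0.8%, a history difference of 2.23 percentage points (exact permutation p = 0.0426, adjusted p = 0.245). At 22 of its 24 CpGs both groups were above control, and 5 CpGs had an unadjusted p under 0.05, with differences of 1.70 to 3.96 percentage points. Pcdh8 had 0 counts in all 15 RNA libraries, so no change of its expression could be set beside these levels.

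The Polr1d amplicon ranked next. It lies 17.0 kb past the end of Polr1d, which encodes a subunit shared by RNA polymerases I and III, and 59.9 kb from the homeobox gene Gsx1. Its 8 CpGs averaged 46.9, 46.4, 47.5, 47.8 and 48.8% in control mice, 48.4, 46.8, 49.6, 48.4 and 49.6% in obese mice and 48.7, 48.7, 48.5, 50.3 and 48.4% in formerly obese mice. The history difference was 1.27 percentage points (exact permutation p = 0.027, adjusted p = 0.217), with control means of 47.5 ± 0.9 against 48.6 ± 1.1 and 48.9 ± 0.8%. All 8 CpGs were higher in the history mean and 6 in both groups. The CpG at base 143 of the printed sequence, chr5:147128746, had the third smallest p of the 233. It was at 63.7, 61.8, 64.8, 64.7 and 63.3% in control mice, 67.0, 64.1, 66.8, 65.2 and 66.8% in obese mice and 68.4, 65.2, 66.6, 68.5 and 67.5% in formerly obese mice. All 5 formerly obese mice lay above all control mice, and obese replicate 2 lay within the control range. Its history difference was 2.95 percentage points (SE 0.69, adjusted p = 0.0674 in limma). Polr1d itself had 103 ± 10, 96.3 ± 3.6 and 99.9 ± 5.8 CPM (counts scaled to a common library total) in the RNA libraries, a log2 difference of -0.07 (SE 0.05, adjusted p = 0.613 in edgeR).

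The 1700020N01Rik amplicon is intergenic, 33.3 kb before the start of that gene. Its 9 CpGs averaged 84.0, 83.4, 84.2, 84.6 and 83.9% in control mice, 84.4, 84.1, 85.1, 84.1 and 84.4% in obese mice and 84.9, 84.3, 84.9, 84.4 and 85.2% in formerly obese mice. The groups overlapped, and the history difference was 0.58 percentage points (exact permutation p = 0.0283, adjusted p = 0.217). The difference was uneven along the amplicon, since 6 CpGs were higher in the history mean and the other 3 were lower in both groups. At chr10:21559816 the history difference was 1.39 percentage points (87.4 ± 0.8, 88.5 ± 0.6 and 89.1 ± 0.6%, adjusted p = 0.152 in limma). At chr10:21559881 it was 2.09 percentage points (44.5 ± 1.6, 46.4 ± 0.8 and 46.7 ± 1.1%, adjusted p = 0.243 in limma).

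**Figure D2:**
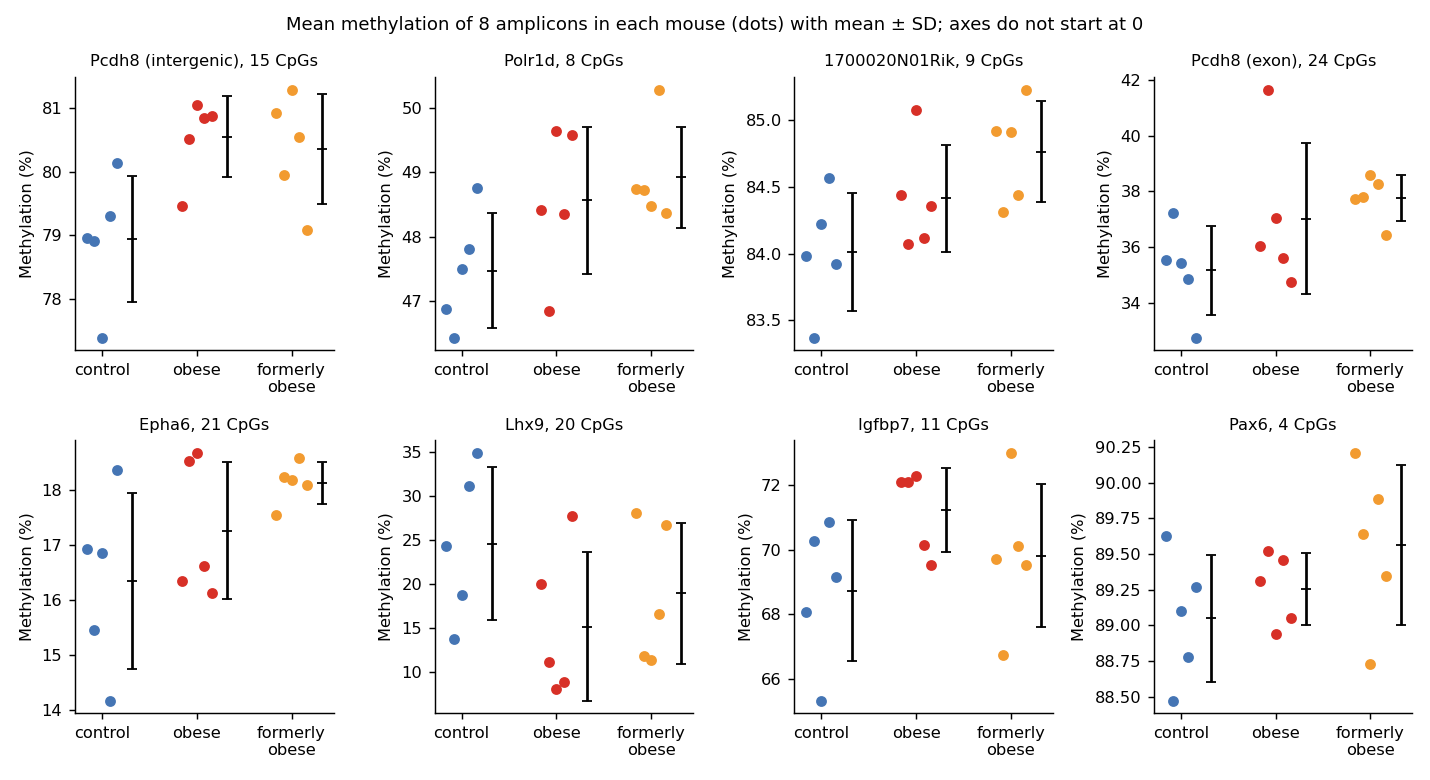
Mean methylation (%) of the 8 amplicons with the smallest exact permutation p, as 1 dot per mouse and mean ± SD of 5 mice per group. In no panel do all mice with a high-fat history lie outside the range of the control mice, and the Lhx9 panel spans 8.1 to 34.9%.

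The next amplicons had larger spreads. In Epha6, the gene of an ephrin receptor, 21 CpGs near the gene's start averaged 16.9, 15.5, 16.9, 14.2 and 18.4% in control mice, 16.3, 18.5, 18.7, 16.6 and 16.1% in obese mice and 17.5, 18.2, 18.2, 18.6 and 18.1% in formerly obese mice. The history difference was 1.33 percentage points (exact permutation p = 0.0613, adjusted p = 0.282), and 0.79 without control replicate 4. Its largest differences were at neighbouring CpGs of intermediate level. At chr16:60605138 the group means were 31.0, 35.7 and 39.6%, a history difference of 6.60 percentage points (SE 2.43), and at chr16:60605133 they were 43.9, 47.8 and 52.5%, a difference of 6.25 (SE 2.32). These were the only CpGs outside Lhx9 with a difference over 5 percentage points, and neither passed (adjusted p = 0.347 for each in limma).

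Igfbp7 encodes a secreted protein that binds insulin-like growth factors, and its amplicon lies 26.6 kb before the gene's start. Its 11 CpGs averaged 68.1, 70.3, 65.3, 70.9 and 69.2% in control mice, 72.1, 72.1, 72.3, 70.1 and 69.5% in obese mice and 69.7, 66.7, 73.0, 70.1 and 69.5% in formerly obese mice. All 11 CpGs were higher than control in both groups, by a history difference of 0.99 to 3.36 percentage points per CpG. The mean differed by 2.50 percentage points in obese mice and by 1.09 in formerly obese mice, and the history difference of 1.80 had an adjusted permutation p of 0.39. Without control replicate 3 it was 0.94. At chr5:77434670 the formerly obese mean (63.6%) was nearer to the control mean (62.9%) than to the obese mean (67.2%). Among the 27 CpGs described below, this was the only one with an unadjusted p under 0.05 for formerly obese against obese mice, and the smallest adjusted p of that comparison over all CpGs was 0.504 in limma.

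The Pax6 amplicon, 87.4 kb before the gene of a transcription factor of eye and endocrine cells, averaged 89.6, 88.5, 89.1, 88.8 and 89.3% in control mice, 89.3, 89.5, 88.9, 89.5 and 89.1% in obese mice and 90.2, 89.6, 88.7, 89.9 and 89.4% in formerly obese mice. The obese mice lay within the range of the control mice, and 3 of the 5 formerly obese mice lay above it. The history difference was 0.36 percentage points (exact permutation p = 0.165, adjusted p = 0.475), and 0.21 without control replicate 2.

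Lhx9, the gene of a LIM homeobox transcription factor, had the largest difference and the opposite direction. Its 20 CpGs averaged 24.3, 13.7, 18.7, 31.2 and 34.9% in control mice, 20.0, 11.1, 8.1, 8.9 and 27.7% in obese mice and 28.1, 11.8, 11.4, 16.6 and 26.7% in formerly obese mice. Each group held both low and high mice, and the groups overlapped over most of their ranges. The means were 24.6 ± 8.7, 15.1 ± 8.4 and 18.9 ± 8.0%, a history difference of -7.54 percentage points with a 95% interval from -17.0 to 1.92 (exact permutation p = 0.116, adjusted p = 0.39). It was -4.96 without control replicate 5 and -10.3 without control replicate 2. All 20 CpGs were lower in both groups, with history differences of -9.87 to -4.197 percentage points. None of the 20 passed in limma (lowest adjusted p = 0.391). The CpGs varied together across the 15 mice, with a lowest r of 0.936 between any pair, so the 20 sites are not independent of each other. The range of the amplicon mean over the mice, 26.8 percentage points, compares with a median range of 2.04 and a highest range of 8.90 in the other 22 amplicons. Lhx9 had at most 1 count in any RNA library and could not be tested.

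**Figure D3:**
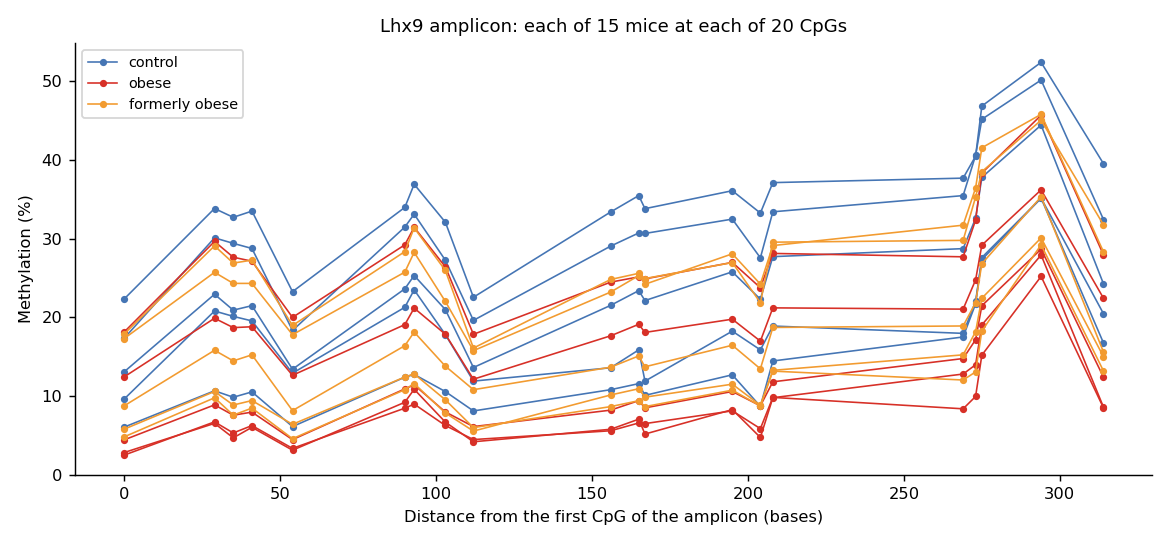
Methylation (%) of each of the 15 mice, 1 line per mouse, at the 20 CpGs of the Lhx9 amplicon against the distance in bases from the first CpG. The lines keep nearly the same order along the amplicon, control, obese and formerly obese mice are interleaved, and the mouse means run from 8.1% to 34.9%.

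Of the 23 amplicons, 0 (0%) passed the exact permutation test at an adjusted p under 0.05, 4 (17.4%) had an unadjusted p under 0.05, and limma over the amplicon means called 0 as well. The 4 were the Pcdh8 intergenic, Polr1d, 1700020N01Rik and Pcdh8 exon amplicons, all higher. The history mean was above control in 16 amplicons. The obese and formerly obese means were both above control in 12, both below in 3 and on opposite sides in 8. For the obese mice alone 1 amplicon had an unadjusted p under 0.05, for the formerly obese mice alone 4, and for formerly obese against obese mice 1. The other 15 amplicons differed by at most 0.50 percentage points (exact permutation p 0.388 to 0.981), and in 11 of the 23 the 95% interval lay within 1 percentage point of 0. Among these were the highly methylated amplicons of Ctnnb1, which encodes beta-catenin (92.4 ± 0.2, 92.4 ± 0.2 and 92.4 ± 0.3%), and of Arvcf, a catenin of the armadillo family (96.0% in all groups).

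**Figure D4:**
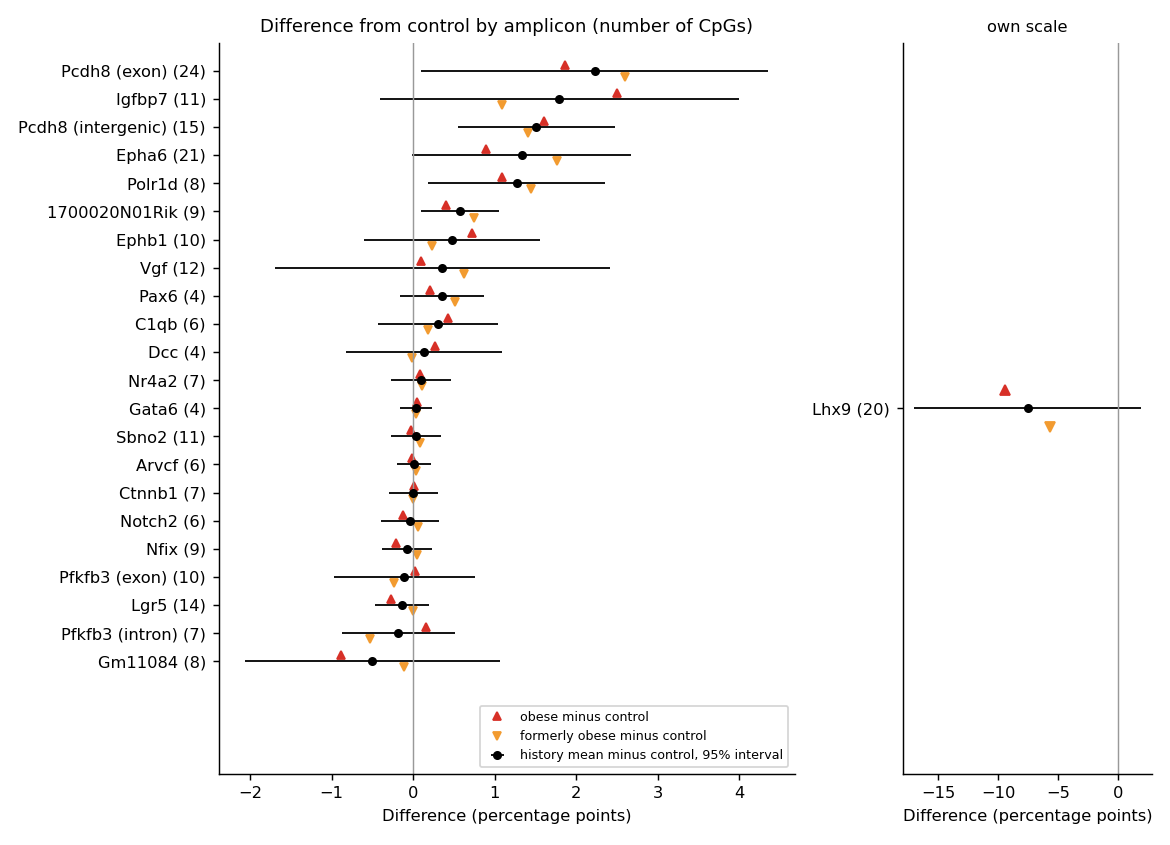
Difference from control in percentage points for 22 amplicons and, on a scale of its own, for Lhx9. Black points are the high-fat history mean with its 95% interval from limma, triangles the obese and formerly obese groups, and the number of CpGs stands in brackets; 4 intervals lie above 0, those of the 4 amplicons with an unadjusted p under 0.05.

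Among single CpGs, 27 of 233 (11.6%) had an unadjusted p under 0.05 in the history comparison, 23 higher (9.87%) and 4 lower (1.72%), in 12 amplicons. They fell mostly in amplicons already described: 6 in the Pcdh8 intergenic and 5 in the Pcdh8 exon amplicon, 3 in Polr1d and 2 each in 1700020N01Rik, Epha6 and Igfbp7. Pax6, Arvcf and Ephb1, an ephrin receptor gene, had 1 each. At chr14:79822681 the history difference was 2.07 percentage points and at chr14:79823096 it was 1.43, both in the Pcdh8 intergenic amplicon (adjusted p = 0.236 and 0.347 in limma). At chr16:18402907 in a coding exon of Arvcf it was 0.61 percentage points (95.8 ± 0.4, 96.3 ± 0.2 and 96.4 ± 0.2%, adjusted p = 0.347 in limma). The 4 lower CpGs were 2 in an intron of Lgr5, a receptor that marks intestinal stem cells (-1.34 and -0.77 percentage points), 1 in an intron of Nfix, a transcription factor gene (-0.63), and 1 in Vgf, the gene of a neuropeptide precursor (-4.83). All 27 lay on the same side of control in both groups, which the equal-weight mean favours. The formerly obese mean was farther from control at 13 of them and the obese mean at 14, and the median absolute distances from control were 2.12 and 1.94 percentage points.

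Over all 233 CpGs the history estimate was above control at 141 (60.5%) and below at 92, of which 20 were the Lhx9 sites. By level, the share that was higher was uneven and followed no order. The 20 Lhx9 sites, all lower, had means of 10.9 to 37.8%, so they lower the shares at 5 to 20% and at 20 to 80%. Of 91 CpGs with a mean of 20 to 80%, 71 were higher and 18 had an unadjusted p under 0.05. Of 36 CpGs with a mean of 5 to 20%, 16 were higher, of 27 at 80 to 90% it was 15 and of 35 at 90 to 95% it was 23. Of 43 CpGs over 95%, 15 were higher, with a median absolute difference of 0.14 percentage points, and the median SD between mice was 0.38 there against 2.17 between 20 and 80%. By position, 53 of 72 CpGs in intergenic amplicons were higher and 14 of those had an unadjusted p under 0.05, against 61 of 111 in amplicons that overlap an exon (8) and 27 of 50 in amplicons within introns (1). Without the 20 Lhx9 sites the exon share was 61 of 91. Neighbouring CpGs and the few amplicons behind each count make these shares descriptions without a test.

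**Figure D5:**
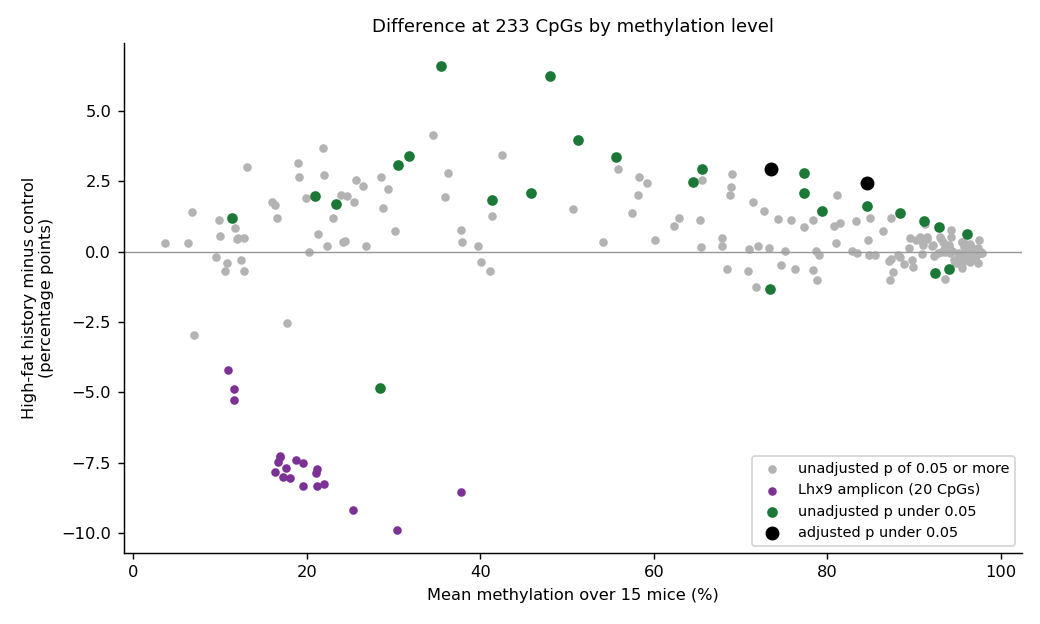
High-fat history minus control in percentage points for each of the 233 CpGs against its mean methylation (%) over the 15 mice. Green points (25) have an unadjusted p under 0.05 in limma, the 2 black points an adjusted p under 0.05, and the 20 purple points at -4.197 percentage points or below are the Lhx9 amplicon.

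The mean over all CpGs was 63.4 ± 0.9% in control mice, 63.2 ± 0.6% in obese mice and 63.7 ± 0.6% in formerly obese mice. The history difference was -0.03 percentage points (exact permutation p = 0.943), and its sign turned to 0.08 when amplicons instead of CpGs had equal weight (p = 0.73). The Lhx9 sites weigh on this mean. Without them, a choice made after their values were seen and so given without a test, the means were 67.1 ± 0.3, 67.7 ± 0.5 and 67.9 ± 0.3%, and the difference was 0.68 percentage points. By mouse, the control values then ran from 66.9 to 67.4% and the history values from 67.2 to 68.5%.

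Only the Lhx9 amplicon overlapped 1 of the 8199 regions of the deposited list of differentially methylated regions between obese and control mice, with 2 of its CpGs inside chr1:138838448-138838452. At these the levels were 25.4 ± 9.0, 16.1 ± 9.1 and 19.6 ± 8.4% in control, obese and formerly obese mice. The Epha6 amplicon lay 264 bases from such a region and the Pcdh8 intergenic amplicon 151 kb. The directions in that list are the authors' own comparison and were not used here.

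RNA-seq of 15 libraries with the same 3 diets allowed the genes at the amplicons to be examined, although the labels do not say whether a replicate number is the same mouse in both assays. The libraries held 15230391 to 22762095 gene counts. In the same history contrast, edgeR called 333 of 12961 genes (2.57%) at a fold over 1.2, p under 0.01 and adjusted p under 0.25, the cutoffs of the study's methods, 169 higher (1.3%) and 164 lower (1.27%). Of the 21 amplicon genes 11 could be tested and 1 was called. This was Pfkfb3, an enzyme that makes an activator of glycolysis, at 2.87, 2.42, 2.48, 1.54 and 1.74 CPM in control libraries. It was at 5.85, 2.93, 3.72, 4.05 and 3.36 CPM in obese and 3.38, 4.199, 2.71, 2.63 and 2.09 CPM in formerly obese libraries. All obese libraries lay above all control libraries, and the formerly obese libraries lay between and overlapped both. The history log2 difference was 0.64 (SE 0.20, adjusted p = 0.141 in edgeR), with 0.85 in obese and 0.44 in formerly obese mice, and the formerly obese mice alone were not called (adjusted p = 0.358). The call was lost without control replicate 2, 4 or 5 and at an adjusted p under 0.05.

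The methylation of the 2 Pfkfb3 amplicons differed little. The exon amplicon was at 89.0 ± 0.7, 89.0 ± 0.9 and 88.7 ± 0.6%, a history difference of -0.11 percentage points (95% interval -0.97 to 0.76), and the intron amplicon at 79.1 ± 0.8, 79.3 ± 0.5 and 78.6 ± 0.5%, a difference of -0.18 (-0.88 to 0.51). Of the genes of the amplicons with an unadjusted p under 0.05, only Polr1d was expressed enough to test. Pcdh8 and Epha6 had no count, Lhx9 and 1700020N01Rik at most 1 and 7 counts in a library and Igfbp7 at most 15. Pax6 was at 0.82 ± 0.35, 0.92 ± 0.34 and 0.79 ± 0.35 CPM, a log2 difference of 0.06 (SE 0.31, adjusted p = 0.957 in edgeR).

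Among 14 genes that write, copy, remove or feed DNA methylation, 12 were tested and edgeR and DESeq2 each called 0. In edgeR 1 had an unadjusted p under 0.05, Idh2 (log2 difference -0.16, SE 0.06, adjusted p = 0.237). These counts are for the history contrast. By group, edgeR called Idh2 lower in obese mice (-0.28, adjusted p = 0.139), where 0.864% of all genes were called lower. In formerly obese mice Idh2 was not called (-0.03, adjusted p = 0.858 in edgeR). The median log2 difference of the 12 genes in the history contrast was -0.04, against 0.00 over all genes tested. Dnmt1, the maintenance methyltransferase, was at 86.9 ± 9.9, 86.9 ± 12.4 and 90.7 ± 13.6 CPM (log2 difference 0.03, SE 0.09). Of 8 posterior Hox genes, which mark position along the gut, edgeR and DESeq2 each called 2 lower and 0 higher in the history contrast. There edgeR called 1.27% of all genes lower, and 6 of the 8 were lower with an unadjusted p under 0.05. The 2 called genes were Hoxd13 at 71.1 ± 6.9, 57.8 ± 10.2 and 49.5 ± 9.1 CPM (log2 difference -0.41, SE 0.11, adjusted p = 0.0753 in edgeR) and Hoxd12 at 4.18 ± 1.2, 2.46 ± 0.68 and 3.04 ± 0.41 CPM (-0.61, SE 0.18, adjusted p = 0.119 in edgeR). The other 6 had log2 differences below 0, and the median of the list was -0.25. By group, edgeR called 1 of the 8 lower in obese mice, Hoxd12 (0.864% of all genes were called lower), and 6 lower in formerly obese mice, Hoxa10, Hoxa13, Hoxb13, Hoxd10, Hoxd11 and Hoxd13 (1.87%), with medians of -0.12 and -0.41. Between formerly obese and obese mice 1 was called, Hoxd10, lower in formerly obese mice (log2 difference -0.51, adjusted p = 0.197 in edgeR). In that comparison 343 of 12961 genes (2.65%) were called, 184 of them lower.

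The RNA libraries showed the markers of a colonic epithelium. All 11 epithelial markers were tested, with summed levels of 14384 to 21296 CPM in control, 15416 to 19654 in obese and 17122 to 22922 in formerly obese libraries, and 0 were called by edgeR (3 with an unadjusted p under 0.05) or by DESeq2. Stem, goblet and enteroendocrine markers had 0 calls by either tool and 0 with an unadjusted p under 0.05. These counts are for the history contrast. In formerly obese against control mice, where 3.72% of all genes were called, edgeR called Krt20 and Slc26a3 higher. Their log2 differences were 0.55 and 0.41 (adjusted p = 0.0806 and 0.0818 in edgeR). In formerly obese against obese mice (2.65% of all genes) edgeR called Slc26a3 higher (0.62, adjusted p = 0.0433). The enteroendocrine marker Pyy was called lower there (-0.35, adjusted p = 0.163 in edgeR). Smooth muscle markers were too low to test, with no more than 9 to 15 counts per gene in any library, and summed to 0.37 to 2.62 CPM in control, 0.92 to 2.70 in obese and 0.22 to 0.93 in formerly obese libraries. Immune markers, of which 7 of 10 were tested and 0 called, summed to 22.8 to 40.4 CPM in control, 31.2 to 60.0 in obese and 26.1 to 52.2 in formerly obese libraries, with a median log2 difference of 0.43. Fibroblast markers, 4 of 6 tested and 0 called (1 with an unadjusted p under 0.05 in edgeR), summed to 2.34 to 10.9, 6.78 to 17.4 and 6.02 to 30.7 CPM, with a median of 0.91. Endothelial markers, 2 of 4 tested and 0 called, summed to 9.11 to 15.7, 8.30 to 11.5 and 8.68 to 14.3 CPM, with a median of -0.19. Of 4 adipocyte markers only Cidec, a lipid droplet gene, was tested, at 3.89 ± 1.06, 5.57 ± 1.83 and 7.44 ± 3.04 CPM. It was called higher in the history contrast (log2 difference 0.72, SE 0.24, adjusted p = 0.165 in edgeR), where 1.3% of all genes were called higher. By group, edgeR called Cidec in formerly obese mice (0.93, adjusted p = 0.0848) but not in obese mice (0.515, adjusted p = 0.52). The other adipocyte markers were all but absent, with at most 2 counts of Adipoq in any library and 0 of Plin1 and Lep. More cells of a type and more RNA per cell cannot be told apart in such libraries. The part of other cell types in the methylation levels was not tested.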

How the data were processed

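Bisulfite-converted DNA of 15 mice was amplified by PCR, pooled per mouse and sequenced. The submitters' processing notes list mm10 and the bisulfite aligner Bismark (versions 0.7.8 and 0.14.0) without saying which version served which assay. The authors deposited, for every CpG in every mouse, the fraction of reads that were methylated, without depth. PCR without molecular identifiers can amplify converted copies unequally, which was not tested. Fractions were written in percent. Of 253 rows, 20 were exact repeats (11 CpGs of the Pcdh8 intergenic and 9 of the Pfkfb3 exon amplicon) and were dropped, and all 233 CpGs fell on a CG of GRCm38. The closest 2 mice of a group differed by a mean of 1.67 percentage points per CpG, and no 2 libraries held the same values. No batch was named in the labels.

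CpGs within 500 bp of the next were joined into amplicons, which may hold more than 1 PCR product, annotated with GENCODE M21. CpGs were tested with limma 3.58.1 in R 4.3.3 (3 groups, equal-weight contrast, Benjamini-Hochberg), amplicon means and the mean over CpGs with exact two-sided permutation tests over 3003 splits of 5 against 10 mice (252 for 5 against 5), smallest p 0.000333 and 0.00794. Tested on simulated data of the history contrast over 233 CpGs, limma recovered 50 of 50 sites shifted by 3 SD, with 3 false calls. The simulated CpGs varied independently, unlike those of the Lhx9 and Pcdh8 intergenic amplicons, and smaller shifts were not tried. The deposited RNA-seq counts, made by the authors with TopHat2 and HTSeq, were tested with edgeR 4.0.16 (filterByExpr, TMM, quasi-likelihood). On simulated counts of 12824 genes it recovered 181 of 200 genes shifted by 1 log2 unit, with 23 false calls. DESeq2 1.42.0 was an alternative. The deposited positions of differentially methylated regions served for overlap of at least 1 bp. Deposited DESeq2 tables of fold changes and p-values were not used.

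The 8 amplicons with the smallest permutation p, the 8 CpGs with the smallest limma p, the amplicon genes called in expression or belonging to those amplicons, and called members of the gene lists are named, and other CpGs with an unadjusted p under 0.05 were named after their values were seen. The comparison and the lists were chosen with earlier results of these data known. P-values measure the spread between mice.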

Additional observations from a re-analysis of the deposited data

Results flagged for a closer look

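In 99 groups of 5 mice (the 23 amplicons, 8 CpGs, the mean over CpGs and Pfkfb3 expression, each in 3 groups), the mouse farthest from its group was compared with the range of the group by Dixon's test. It passed the 95% limit of 0.71 in 4 groups, and chance passes about 1 in 20. All 4 were formerly obese mice, each a different animal.

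At the Polr1d amplicon formerly obese replicate 4 was at 50.3%, above the 48.4 to 48.7% of the other 4. At the Pfkfb3 intron amplicon formerly obese replicate 2 was at 79.5%, above 78.1 to 78.5%. At the Notch2 amplicon formerly obese replicate 3 was at 93.9%, below 94.4 to 94.6%. At chr14:79822735, the CpG without overlap between control mice and mice with a high-fat history, formerly obese replicate 5 was at 84.2%, below the 85.4 to 85.8% of the other 4 and above the highest control mouse. Without that mouse the history difference there was 2.56 percentage points.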

How the results depend on the processing

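The number of CpGs called for a high-fat history, 2, became 1 with M values (log2 of methylated over unmethylated percent) and 1 with a variance trend and robust fit. By exact permutation, a test that could not call a single CpG on its own, it was 0. It was 1 to 3 when 1 mouse was left out. The CpG at chr14:79822735 stayed called in all of the limma fits (adjusted p 0.00201 to 0.0371), and that at chr14:79822720 was lost with M values, the trend fit and the replicate block. For obese mice alone the count of 1 became 0 with the replicate block and was 0 to 2 when 1 mouse was left out. For formerly obese mice alone it became 0 with M values, 0 with the trend fit and 0 for CpGs of 5 to 95% only, and was 0 to 3 when 1 mouse was left out. The count of called amplicons, 0, stayed 0 with medians, M values, limma and the replicate block, and was 0 to 1 when 1 mouse was left out. The smallest p that the replicate block allows in the permutation test, 0.00412, cannot carry a single amplicon past the adjustment over 23. That setting is therefore no check on a single amplicon. Joins at 200 or 1000 bp gave the same 23 amplicons and so tested nothing further. All 8 named amplicons and all 8 named CpGs kept their direction in each fit that tested them. The mean over all CpGs changed sign to 0.085 with equal weight per amplicon and ranged from -0.30 to 0.25 when 1 mouse was left out, above 0 without control replicate 1 (0.041), 4 (0.076) or 5 (0.25), obese replicate 3 (0.067) or 4 (0.072) or formerly obese replicate 2 (0.015). The count of CpGs without overlap was 1 to 3 when 1 mouse was left out (3 without control replicate 4). The called amplicon gene, Pfkfb3, kept its call in DESeq2, with other size factors, without the filter and with the replicate block. The count of 1 became 0 at an adjusted p under 0.05 and was 0 to 1 when 1 library was left out. The causes were not tested.

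The labels number the mice 1 to 5 in each group but do not say that a number is shared by litter or day. Deviations from the group mean of mice with the same number correlated between -0.16 and 0.27 over the CpGs, so the numbers were not taken as pairs. With the number as a block in limma (replicate block), the history comparison called 2 CpGs, chr14:79822735 and chr5:147128746 (adjusted p = 0.0252). Without read depths, the sampling error of a level within a mouse could not be separated from the spread between mice.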
